A study of Mus musculus with 18 samples.

Results

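S100 proteins and galectins were followed at the RNA level in CD3+ TILs, the T cells that had entered B16-OVA tumors. The 10 genes chosen by symbol were S100a4, S100a6, S100a8, S100a9, S100a10, S100a11, S100a13, Lgals1, Lgals3 and Lgals9, out of 37236 genes in the table. Of these 10 members, 9 had a mean of at least 10 normalized read counts and entered the tests over 11992 genes, and S100a9 did not.

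B16-OVA cells are melanoma cells of the mouse to which ovalbumin was added as a tumor antigen. C57BL/6 mice, either wild-type (Nr2f6+/+) or lacking Nr2f6 in the germline (Nr2f6-/-), were injected s.c. with 500000 tumor cells. They were then given 0.5 mg of an antibody to PD-L1 (αPD-L1) or of the control antibody IgG2b from d3 on, and TILs were taken at d14. The deletion was not limited to T cells. The methods give an age of 8 to 12 weeks for mice with these tumors, without repeating it for the sequenced ones, and do not say whether a library held cells of more than 1 mouse. Each genotype had 3 libraries with IgG2b and 6 with αPD-L1, which makes 4 groups, so that loss of Nr2f6 and blockade of PD-L1 could be read alone and together. The paper's figure legend for these groups gives a lower number with αPD-L1 for each genotype, and all deposited libraries were used here.

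The 18 libraries came in 2 ranges of library numbers. All IgG2b libraries and αPD-L1 replicates 1 to 3 were in the first range, and αPD-L1 replicates 4 to 6 made up the second. Reads counted on genes ran from 12473391 to 18609482 over the 16 libraries for which they could be recovered. Nr2f6 itself was at 0 in all 9 Nr2f6-/- libraries and between 20.2 and 201 normalized counts in the 9 Nr2f6+/+ libraries. Each library mixed CD4+ and CD8+ T cells, so fewer cells of a type and less RNA per cell cannot be told apart.

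S100 proteins are small calcium-binding proteins that usually act as dimers and change shape when calcium binds. Inside the cell they attach to annexins, myosin and other partners, and some are released and act as alarm signals through receptors such as RAGE and TLR4. In T cells, S100a4 and S100a6 are known as genes of activated and memory cells, whereas S100a8 and S100a9 form calprotectin, the main cytosolic protein of neutrophils. Galectins are lectins that bind galactose-containing sugars on surface glycoproteins, and Lgals1, Lgals3 and Lgals9 are known for restraining T cells from outside the cell.

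The 7 S100 members all lie on chromosome 3 (GRCm38.p6, RefSeq). S100a13 (chr3:90514233-90524581), S100a4 (chr3:90603770-90606045), S100a6 (chr3:90612894-90614414), S100a8 (chr3:90669071-90670034) and S100a9 (chr3:90692630-90695721) form 1 group. S100a11 (chr3:93520496-93526288) and S100a10 (chr3:93555117-93564645) lie 2825 kb further on. S100a6 starts 6.85 kb after the end of S100a4, on the same strand. The first 98 bases of S100a13 overlap S100a1 on the other strand, and the strand setting of the counting was not stated, so the split of reads between that pair is uncertain. The galectin members are scattered: Lgals9 at chr11:78962979-78984924, Lgals3 at chr14:47373860-47386167 and Lgals1 at chr15:78926725-78930465.

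The 250 bases before the starts of S100a4 and S100a6 are shown because these 2 neighbours were the members that passed the test below. Capitals mark TATAAA, the TATA box, and AGGTCA, the half-site bound by nuclear receptors of the Nr2f family, both searched on either strand.
S100a4, chr3:90603520-90603769, plus strand: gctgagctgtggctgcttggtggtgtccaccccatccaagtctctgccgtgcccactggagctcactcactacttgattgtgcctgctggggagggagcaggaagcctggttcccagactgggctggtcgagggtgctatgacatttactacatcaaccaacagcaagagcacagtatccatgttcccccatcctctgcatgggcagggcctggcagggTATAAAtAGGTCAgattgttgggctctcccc
S100a6, chr3:90612644-90612893, plus strand: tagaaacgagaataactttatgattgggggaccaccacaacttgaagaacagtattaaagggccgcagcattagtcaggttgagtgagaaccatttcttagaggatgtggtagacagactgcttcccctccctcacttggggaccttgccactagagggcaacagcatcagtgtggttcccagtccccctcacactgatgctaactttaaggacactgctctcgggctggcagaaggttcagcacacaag
The S100a4 window held TATAAA starting 31 bases before the gene's start and AGGTCA starting 24 bases before it, separated by 1 base. Neither run of letters was present in the S100a6 window. Among the 32851 promoter windows of this length in the RefSeq table, 12.4% held TATAAA and 14% held AGGTCA on either strand. Of the 10 members, 8 had an entry, and the other windows with a match were S100a8 with TATAAA and S100a11 with AGGTCA.

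S100a6 was the member that set Nr2f6-/- αPD-L1 TILs apart from the other groups. Its product, calcyclin, binds annexins and the ubiquitin-related adaptor CacyBP. With αPD-L1 the normalized counts of S100a6 were 63689, 47901, 53942, 37521, 38329 and 39534 in Nr2f6-/- TILs, and 29763, 33199, 31862, 21606, 17562 and 27267 in Nr2f6+/+ TILs. With IgG2b they were 31234, 23918 and 30408 in Nr2f6-/- TILs and 22108, 33235 and 21733 in Nr2f6+/+ TILs. Every Nr2f6-/- αPD-L1 library lay above every library of the other 3 groups, whose ranges overlapped one another. The share of all genes with this pattern was not counted. It cannot exceed the 0.392% that were higher without overlap between genotypes with αPD-L1.

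**Figure D1:**
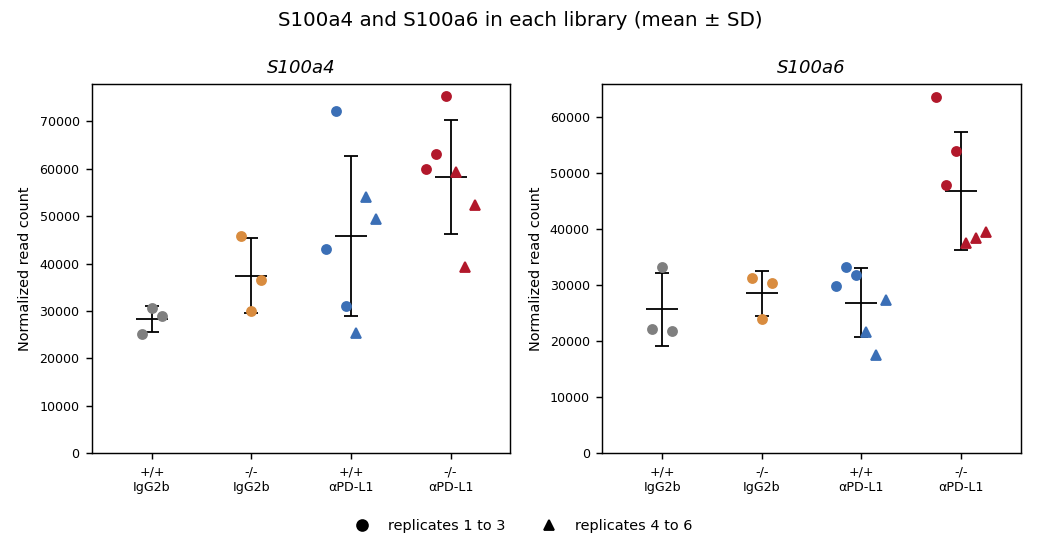
Normalized read counts of S100a4 (left) and S100a6 (right) in each of the 18 libraries by group. Circles are replicates 1 to 3, triangles replicates 4 to 6, and black bars the mean ± SD; S100a6 in the 6 Nr2f6-/- αPD-L1 libraries is at 37521 or above and in all other libraries at 33235 or below, whereas S100a4 overlaps between neighbouring groups.

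Between genotypes under αPD-L1, S100a6 was 1.75-fold higher in Nr2f6-/- TILs (95% confidence interval 1.37 to 2.23), a log2 fold change of 0.81 ± 0.17 (SE) with an adjusted p of 0.0360 by limma. The fold changes here are on the scale of log2(normalized count + 1), and p-values were adjusted over all 11992 genes with a threshold of 0.05. Of all genes tested, 0.175% were called in this comparison and 0.392% were higher with no overlap of the libraries. The log2 fold change was 0.80 within replicates 1 to 3 and 0.82 within replicates 4 to 6. In a fit of the first range alone S100a6 was not called (adjusted p = 0.0911, limma). The call is close to the threshold. It was lost when any 1 of Nr2f6-/- αPD-L1 replicates 1, 2 and 3 or Nr2f6+/+ αPD-L1 replicates 4, 5 and 6 was left out, with adjusted p-values over all such fits between 0.0312 and 0.121 and log2 fold changes between 0.69 and 0.88.

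S100a6 was also called higher in the combination of Nr2f6 loss and αPD-L1 against Nr2f6+/+ IgG2b, the group with neither, by 0.87 ± 0.21 on the log2 scale (adjusted p = 0.0448, limma). Within Nr2f6-/- TILs the 6 αPD-L1 libraries were all above the 3 IgG2b libraries, as they were for 1.97% of genes, with a log2 fold change of 0.70 ± 0.21 and an adjusted p of 0.206 by limma. With the library range as a covariate this fold change was 0.96 (adjusted p = 0.0170, limma). In both αPD-L1 groups each of replicates 4 to 6 was below each of replicates 1 to 3. In Nr2f6+/+ TILs the αPD-L1 libraries overlapped those with IgG2b, and the log2 fold change was 0.06 with a 95% confidence interval from -0.37 to 0.49. The sign of this value changed under quantile normalization, where it was -0.17. With IgG2b alone the genotypes overlapped, at a log2 fold change of 0.17 ± 0.24 (adjusted p = 0.993, limma).

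Whether the αPD-L1 effect on S100a6 differed between genotypes was tested as an interaction. The difference was 0.64 on the log2 scale (95% confidence interval 0.03 to 1.24), with an unadjusted p of 0.0395 by limma among 4.97% of genes below 0.05 and an adjusted p of 0.974. The mean αPD-L1 effect over both genotypes was 0.38 ± 0.15 (adjusted p = 0.277, limma).

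S100a4, also called metastasin or Fsp1, binds non-muscle myosin and is known for cell motility. Its normalized counts were 25213, 30563 and 28852 in Nr2f6+/+ IgG2b and 45743, 30072 and 36568 in Nr2f6-/- IgG2b. In Nr2f6+/+ αPD-L1 they were 43059, 72108, 30996, 25290, 54058 and 49423, and in Nr2f6-/- αPD-L1 59851, 63075, 75451, 59343, 39303 and 52330. The group means stood in that order, from 28209 ± 2732 (SD, n = 3) through 37461 ± 7873 (n = 3) and 45822 ± 16857 (n = 6) to 58225 ± 11975 (n = 6), but each group overlapped the next. The first and the last did not overlap. Within Nr2f6+/+ αPD-L1 the highest library was replicate 2 and the lowest replicate 4, a wider spread than in any other group.

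In the combination against Nr2f6+/+ IgG2b, S100a4 was 2.03-fold higher (95% confidence interval 1.45 to 2.86), a log2 fold change of 1.02 ± 0.24 with an adjusted p of 0.0381 by limma. In this comparison 2 of the 9 members tested were called, S100a4 and S100a6, against 0.617% of all genes, and both were higher without overlap, as were 2.17% of genes. Leaving out any 1 of the 9 libraries left 0 or 1 of the calls. The adjusted p from limma then lay between 0.0291 and 0.248 for S100a4 and between 0.0450 and 0.310 for S100a6. edgeR's quasi-likelihood test on the recovered reads called neither (adjusted p = 0.0978 and 0.0585) and 0.183% of all genes, and DESeq2 called both and 1.87% of all genes.

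The αPD-L1 effect on S100a4 was of a like size in both genotypes, 0.62 ± 0.24 in Nr2f6+/+ (adjusted p = 0.546, limma) and 0.63 ± 0.24 in Nr2f6-/- (adjusted p = 0.338, limma). Their difference was 0.01, with a 95% confidence interval from -0.68 to 0.71, and its sign changed between fits. Averaged over genotypes the effect was 0.62 ± 0.17, just short of the threshold (adjusted p = 0.0630, limma). S100a4 then passed without Nr2f6+/+ αPD-L1 replicate 3 or 4 or Nr2f6-/- αPD-L1 replicate 5, with an adjusted p from limma as low as 0.0201. Between genotypes S100a4 was 0.39 ± 0.28 higher on the log2 scale with IgG2b (adjusted p = 0.989, limma) and 0.40 ± 0.20 with αPD-L1 (adjusted p = 0.511, limma), and the libraries overlapped in both.

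S100a10 and S100a11 encode partners of annexins: S100a10, or p11, forms a tetramer with annexin A2 and S100a11 binds annexin A1. S100a10 ran between 7986 and 17983 normalized counts, with both extremes in Nr2f6+/+ αPD-L1, where the median was 12293. In the other groups it was 13365, 12445 and 11612 in Nr2f6+/+ IgG2b, 12344, 16118 and 14965 in Nr2f6-/- IgG2b, and 10969 at the lowest, 14276 at the median and 14893 at the highest in Nr2f6-/- αPD-L1. All groups overlapped. The mean αPD-L1 effect on S100a10 was -0.08 on the log2 scale (95% confidence interval -0.36 to 0.20), and the genotype difference with αPD-L1 was 0.18 (-0.14 to 0.50).

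S100a11 had higher means in Nr2f6-/- than in Nr2f6+/+ TILs with either antibody. It measured 1957, 1695 and 1824 in Nr2f6+/+ IgG2b and 2278, 2114 and 2844 in Nr2f6-/- IgG2b, which did not overlap. In Nr2f6+/+ αPD-L1 the lowest, median and highest values were 1561, 1871 and 2196, and in Nr2f6-/- αPD-L1 they were 1832, 2349 and 3285, which overlapped. The genotype difference of S100a11 was 0.39 ± 0.26 on the log2 scale with IgG2b and 0.39 ± 0.18 with αPD-L1, and neither passed (adjusted p = 0.989 and 0.484, limma). Lgals9 was the other member without overlap between genotypes with IgG2b, a pattern met in that direction by 6.1% of genes. The mean αPD-L1 effect on S100a11 was 0.01 (95% confidence interval -0.31 to 0.33), with a sign that changed between fits.

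S100a13, which takes part in the release of proteins that lack a signal peptide, overlapped between all groups. It measured 2354, 3454 and 2234 in Nr2f6+/+ IgG2b and 1777, 2149 and 3083 in Nr2f6-/- IgG2b. With αPD-L1 the lowest, median and highest were 2296, 2444 and 3895 in Nr2f6+/+ and 2402, 3119 and 4168 in Nr2f6-/-. The mean αPD-L1 effect was 0.25 ± 0.17 on the log2 scale (adjusted p = 0.629, limma). The genotype difference with αPD-L1 was 0.16 ± 0.19, and it was -0.13 within replicates 1 to 3 and 0.45 within replicates 4 to 6.

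S100a8 and S100a9 were at or near 0. S100a8 had reads in 4 of 18 libraries, with 215 normalized counts in Nr2f6+/+ αPD-L1 replicate 5 and at most 3.64 in the other 3. S100a9 had reads in the same 4 libraries, at 34.5 in Nr2f6+/+ αPD-L1 replicate 5, 30.4 in Nr2f6-/- αPD-L1 replicate 3, 11.4 in Nr2f6+/+ IgG2b replicate 1 and 0.942 in Nr2f6-/- IgG2b replicate 2. A count of 0 allows up to 3 reads, which was 2.46 to 3.64 normalized counts in these libraries, and covers counting error only. S100a8 entered the tests only through 1 library, so no fold change is given for it. Among the 14 markers of neutrophils, Elane, Camp and Lcn2 were at 0 in all libraries and 2 passed the filter on low values, and the list summed to between 2.04 and 927 normalized counts per library.

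**Figure D2:**
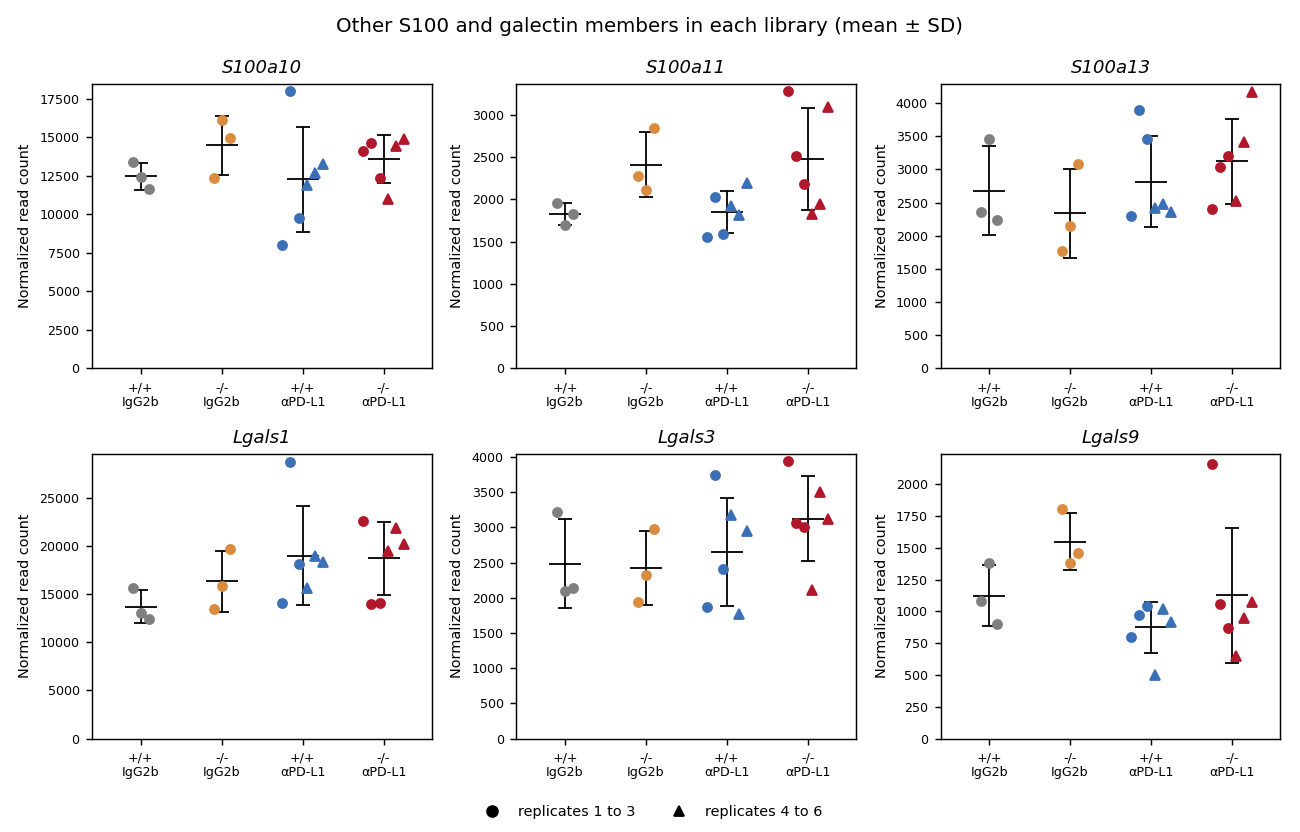
Normalized read counts of S100a10, S100a11, S100a13, Lgals1, Lgals3 and Lgals9 in each library by group, with circles for replicates 1 to 3, triangles for replicates 4 to 6 and black bars for the mean ± SD. S100a11 and Lgals9 do not overlap between genotypes with IgG2b, a pattern of 6.1% of genes in that direction, and neither was called. For Lgals9 the closest values, 1380.46 and 1380, nearly coincide. Both genes overlap between genotypes with αPD-L1, and the other genes overlap between all groups.

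Lgals1 encodes galectin-1, a lectin that activated T cells make and that can trigger their death. It measured 15649, 13027 and 12454 in Nr2f6+/+ IgG2b and 13445, 15869 and 19682 in Nr2f6-/- IgG2b. With αPD-L1 the lowest, median and highest were 14107, 18219 and 28747 in Nr2f6+/+ and 13951, 19873 and 22599 in Nr2f6-/-. The αPD-L1 medians were above the IgG2b medians in both genotypes, but the libraries overlapped. The αPD-L1 effect on Lgals1 was 0.44 ± 0.20 on the log2 scale in Nr2f6+/+ (adjusted p = 0.646, limma) and 0.19 ± 0.20 in Nr2f6-/- (adjusted p = 0.831, limma). Its mean over genotypes was 0.31 ± 0.14 (adjusted p = 0.385, limma). The genotype difference with αPD-L1 was -0.01, with a 95% confidence interval from -0.35 to 0.33 and a sign that changed between fits. In the combination against Nr2f6+/+ IgG2b the log2 fold change was 0.43 ± 0.20 (adjusted p = 0.523, limma).

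Lgals3, the galectin with a collagen-like tail that can cross-link glycoproteins into a lattice, measured 3219, 2093 and 2146 in Nr2f6+/+ IgG2b and 1945, 2327 and 2982 in Nr2f6-/- IgG2b. With αPD-L1 the lowest, median and highest were 1774, 2677 and 3739 in Nr2f6+/+ and 2113, 3094 and 3939 in Nr2f6-/-. All groups overlapped. The mean αPD-L1 effect on Lgals3 was 0.22 ± 0.17 (adjusted p = 0.705, limma) and the genotype difference with αPD-L1 0.27 ± 0.20 (adjusted p = 0.708, limma).

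Lgals9, a galectin with a sugar-binding domain at either end and a ligand of Tim-3, had lower means with αPD-L1 than with IgG2b in both genotypes. It measured 1082, 1380.0 and 903 in Nr2f6+/+ IgG2b and 1807, 1380 and 1458 in Nr2f6-/- IgG2b, where the closest values, from replicate 2 of either group, differed by less than 1. With αPD-L1 the lowest, median and highest were 499, 943 and 1038 in Nr2f6+/+ and 647, 1004 and 2156 in Nr2f6-/-. In Nr2f6-/- αPD-L1, replicate 1 was above the other 5 libraries, of which the highest was 1072. The αPD-L1 effect on Lgals9 was -0.38 ± 0.31 on the log2 scale in Nr2f6+/+ (adjusted p = 0.869, limma) and -0.56 ± 0.31 in Nr2f6-/- (adjusted p = 0.598, limma), with a mean of -0.47 ± 0.22 (adjusted p = 0.413, limma). Between genotypes Lgals9 differed by 0.48 ± 0.36 with IgG2b and by 0.30 ± 0.26 with αPD-L1 (adjusted p = 0.989 and 0.751, limma).

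**Figure D3:**
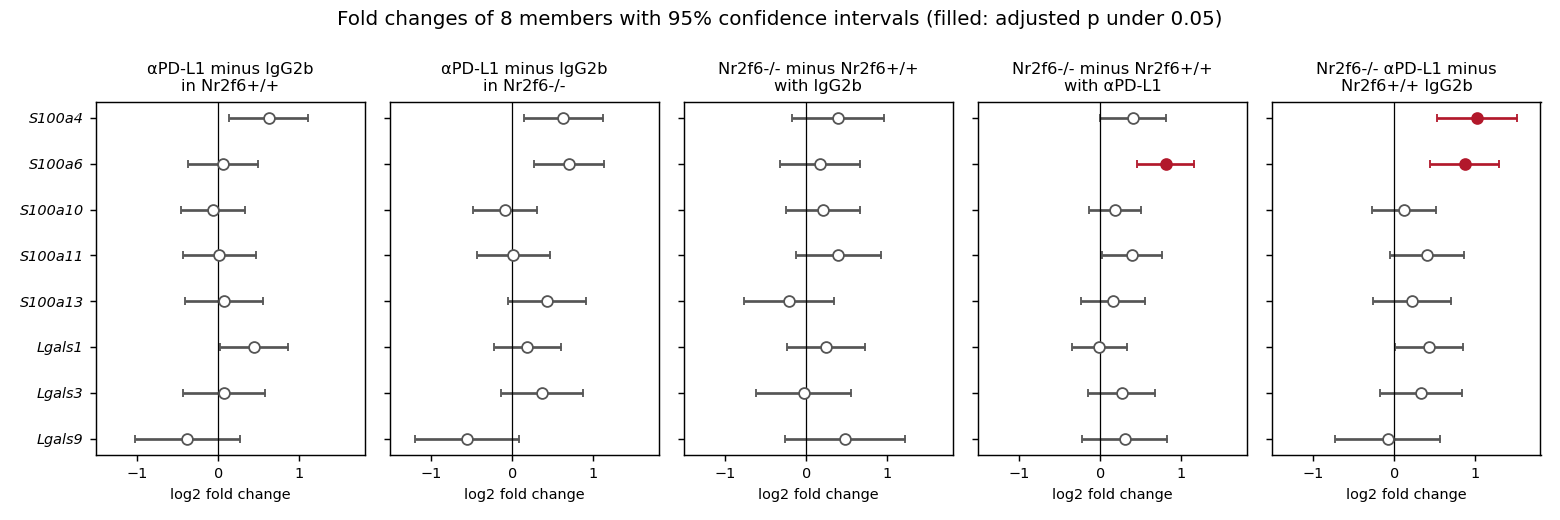
Log2 fold changes (x axis) of 8 members (rows) in 5 comparisons (panels), with 95% confidence intervals from limma as bars. Filled red points have an adjusted p under 0.05: S100a6 between genotypes with αPD-L1 (0.81), and S100a4 (1.02) and S100a6 (0.87) in the combination against Nr2f6+/+ IgG2b.

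Counted over the 7 comparisons, calls among the 9 members tested were few. With αPD-L1 against IgG2b, 0 members were called by limma in Nr2f6+/+, where 0.242% of all genes were, and 2 (S100a4 and Lgals1) had an unadjusted p under 0.05, against 7.24% of genes. In Nr2f6-/- the member count was also 0, against 0.325% of genes, with S100a4 and S100a6 below 0.05 before adjustment, against 9.7%. For the mean over genotypes it was 0 against 1.13% of genes, and 4 members (S100a4, S100a6, Lgals1 and Lgals9) were below 0.05 before adjustment, against 11.5%. In these 3 comparisons edgeR called 0 members, against 0.2%, 0.0834% and 0.617% of all genes. DESeq2 called 0, 1 (S100a6) and 1 (S100a4), against 0.788%, 1.77% and 2.61% of all genes.

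Between genotypes with IgG2b, limma, edgeR and DESeq2 each called 0 members, against 0%, 0% and 0.685% of all genes, and 0 members had an unadjusted p under 0.05, against 5.35% of genes. With αPD-L1 the 1 member called by limma, S100a6, was also the 1 called by edgeR, against 0.3% of all genes, and by DESeq2, against 2.59%. S100a4 and S100a11 joined it below 0.05 before adjustment by limma, against 9.73% of genes. In the combination Lgals1 joined S100a4 and S100a6 at that level, against 9.04%. For the interaction limma called 0 members and 0% of genes, edgeR and DESeq2 called 0 members, against 0% and 0.608% of genes, and S100a6 was the 1 member below 0.05 before adjustment.

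Without S100a8, which passed the filter through 1 library, 7 of 8 members had a positive log2 fold change between genotypes with αPD-L1, against 49.6% of all genes, with a median of 0.28 against -0.0049. In the combination it was also 7 of 8, against 42.1% of all genes, with a median of 0.37 against -0.12. For the interaction it was 4 of 8, against 53.0% of all genes, with a median of 0.0049 against 0.060. In the other 4 comparisons 6 of 8 were positive, against 42.6% to 47.1% of all genes. The member medians there were 0.063 to 0.28, against -0.10 to -0.043 over all genes. S100a8 was set aside with its values known. The median of all genes moved by 0.10 in αPD-L1 against IgG2b in Nr2f6+/+ and by 0.11 in the combination when the values were quantile-normalized, so members' changes there are best read against that shift.

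Other genes listed with both families stayed at low levels or did not pass. The lists also hold S100pbp and Lgals3bp, which encode binding partners and are not themselves S100 or galectin genes. Of 11 further genes in the S100 list 5 were tested, and of 8 in the galectin list 5 were tested. Limma, edgeR and DESeq2 called 0 of either list in any of the 7 comparisons. Before adjustment 3 of the 5 tested genes of the S100 list were lower between genotypes with αPD-L1 at p under 0.05 by limma. In that comparison 9.73% of all genes were below 0.05, and the S100 list had none in any other. In the galectin list 1 gene was higher at that level with αPD-L1 in Nr2f6-/-, between genotypes with αPD-L1 and for the interaction. The shares of all genes there were 9.7%, 9.73% and 4.97%. S100a5, which lies between S100a4 and S100a6, had reads in 1 of 18 libraries, and S100a7a, S100a14, S100g and S100z were at 0 in all. S100a1, S100b and S100pbp, the S100P-binding protein, were the 3 with the highest means. Their log2 fold changes between genotypes with αPD-L1 were -1.31, -2.26 and -0.68 (adjusted p = 0.437, 0.503 and 0.465, limma), opposite in sign to S100a6. Lgals3bp, which encodes a secreted ligand of galectin-3, was 0.51 ± 0.23 higher in Nr2f6-/- αPD-L1 than in Nr2f6+/+ αPD-L1 (adjusted p = 0.478, limma), and Lgals8 and Lgalsl differed by -0.45 and 0.45.

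Partners and receptors did not pass either. Among the S100 partners and receptors 13 of 15 genes were tested and 0 were called by limma or edgeR in any comparison. DESeq2 called at most 1, with αPD-L1 in Nr2f6-/- and for the mean αPD-L1 effect, against 1.77% and 2.61% of all genes. For the mean αPD-L1 effect 1 was higher and 4 were lower before adjustment at p under 0.05 by limma, against 11.5% of all genes. Among the lower was Anxa1, the partner of S100a11, with a mean effect of -1.49 ± 0.40, just short of the threshold (adjusted p = 0.0604, limma). Anxa2, the partner of S100a10, averaged 13615 normalized counts and differed between genotypes with αPD-L1 by 0.06 ± 0.14, and Anxa6 by 0.22 ± 0.15. Hspa8, a chaperone, differed by -0.31 ± 0.15 (adjusted p = 0.519, limma). Ager, which encodes RAGE, had reads in 1 of 18 libraries. Among 17 galectin receptors and ligands, all tested, limma and edgeR called 0 in any comparison. DESeq2 called at most 2, for the mean αPD-L1 effect, against 2.61% of all genes. Before adjustment 3 were higher and 2 lower for that effect by limma, against 11.5% of all genes. Itgb1, an integrin chain, had a mean αPD-L1 effect of -0.35 ± 0.14 (adjusted p = 0.272, limma) and Ptprc, which encodes CD45, of -0.16 ± 0.13.

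Among 13 glycan enzymes that build or cap the sugars galectins bind, 12 were tested and 1 was called by limma. St6gal1, whose α2,6-linked sialic acid blocks binding of galectin-1, measured 726 at the lowest, 934 at the median and 1147 at the highest in Nr2f6+/+ IgG2b, and 385, 798 and 1549 in Nr2f6-/- IgG2b. With αPD-L1 these values were 47.9, 263 and 366 in Nr2f6+/+ and 82.2, 225 and 456 in Nr2f6-/-. The mean αPD-L1 effect was -2.02 ± 0.44 on the log2 scale (adjusted p = 0.0163, limma), in a comparison where 1.13% of all genes were called. In Nr2f6+/+ the αPD-L1 libraries all lay below those with IgG2b, as they did for 3.22% of genes. In Nr2f6-/- the treatments overlapped. Mgat1, Mgat2 and B4galt1, the others with the highest means, had mean αPD-L1 effects of 0.10, -0.01 and 0.17 and were not called.

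Effector T cell markers and the CD8 chains had their highest median sums in Nr2f6-/- αPD-L1, as S100a6 did. The sum of 11 effector T cell markers was 194020 to 250175 normalized counts in Nr2f6-/- αPD-L1 and 79780 to 195417 in Nr2f6+/+ αPD-L1, against 87234 to 96225 in Nr2f6+/+ IgG2b and 101210 to 131889 in Nr2f6-/- IgG2b. Ccl5, a chemokine of effector CD8+ T cells and part of that list, was 1.51 ± 0.22 higher on the log2 scale in Nr2f6-/- than in Nr2f6+/+ with αPD-L1 (adjusted p = 0.000732, limma). Ccl5 alone averaged 130321 in Nr2f6-/- αPD-L1 and 50655 in Nr2f6+/+ αPD-L1. It was the 1 marker of the 11 called in this comparison, where 7 of 11 had a positive log2 fold change. Klrg1, Prf1 and Cx3cr1, also effector genes, had lower means in Nr2f6-/- than in Nr2f6+/+ αPD-L1, at 413 against 915, 801 against 999 and 1710 against 1803. Cd8a and Cd8b1, the chains of CD8, differed by 0.54 ± 0.18 and 0.67 ± 0.18 (adjusted p = 0.278 and 0.121, limma), and Cd4 by -0.12 ± 0.29. Summed, the CD8 chains ran from 28388 to 40405 in Nr2f6-/- αPD-L1 and from 12805 to 34822 in Nr2f6+/+ αPD-L1. The part of cell composition in the S100a6 result was not tested.

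**Figure D4:**
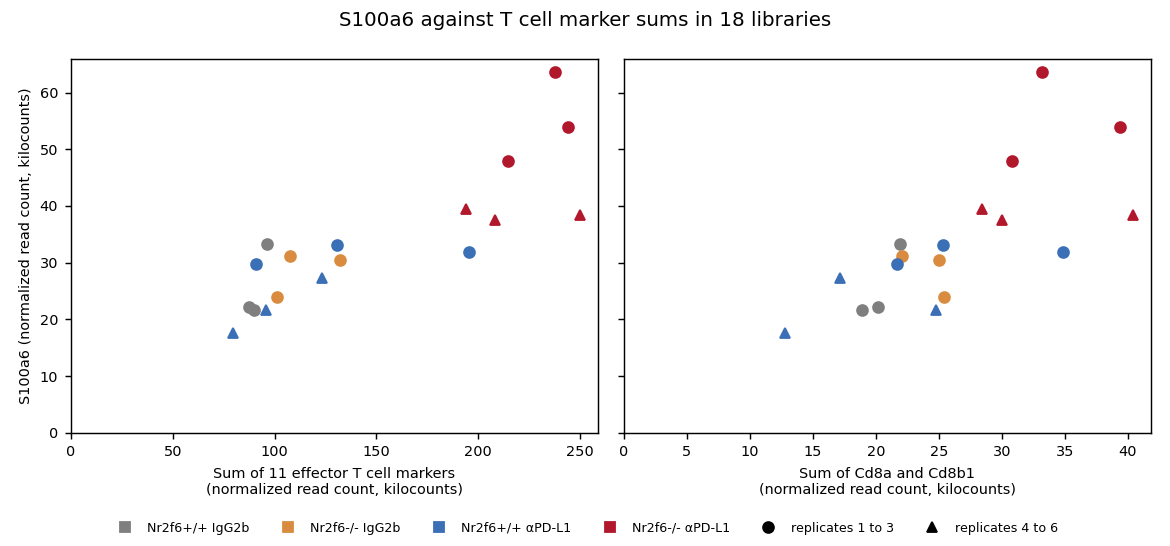
S100a6 (y axis) against the sum of 11 effector T cell markers (left) and of Cd8a and Cd8b1 (right), all as normalized read counts on axes marked in kilocounts, with 1 point per library and colour for the group. The 6 Nr2f6-/- αPD-L1 libraries are at the top of both panels. Nr2f6+/+ αPD-L1 replicate 3, with an effector sum of 195417 and a CD8 chain sum of 34822, is at 31862 for S100a6. It lies to the right of some Nr2f6-/- αPD-L1 libraries in both panels.

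Markers of other cell types were detected. The 15 markers of macrophages and monocytes summed to 23990 to 26208 in Nr2f6+/+ IgG2b, 17992 to 24592 in Nr2f6-/- IgG2b, 5674 to 12352 in Nr2f6+/+ αPD-L1 and 14137 to 19284 in Nr2f6-/- αPD-L1. The list includes Ly6c2, which activated CD8+ T cells also express and which was 1.05 ± 0.17 higher in Nr2f6-/- than in Nr2f6+/+ with αPD-L1 (adjusted p = 0.00218, limma). Without Ly6c2 the sums were 14222 to 17976, 8066 to 11837, 1439 to 6433 and 1084 to 2339 in the same order of groups. Lyz2, a lysozyme of macrophages, fell by 2.85 ± 0.27 with αPD-L1 in the mean over genotypes (adjusted p = 3.2e-07, limma). Macrophages also express S100a4, S100a6 and Lgals1, and their part in the members' values was not tested. Markers of melanocytes and B16 cells summed to 2789 to 4758, 1259 to 2433, 2077 to 8124 and 799 to 4524 in that order. Of the 8 tested, 5 had a positive mean αPD-L1 effect, with a median of 0.09. Between genotypes 0 of 8 were positive, with medians of -1.79 with IgG2b and -1.49 with αPD-L1, and 0 were called by limma, edgeR or DESeq2, with 2 and 3 lower at an unadjusted p under 0.05 by limma. The part of tumor cell RNA in the members' values was not tested.

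T cell identity markers were present in all libraries. The 12 of them summed to 99270 to 116570 normalized counts in Nr2f6+/+ IgG2b, 123018 to 130892 in Nr2f6-/- IgG2b, 105535 to 159242 in Nr2f6+/+ αPD-L1 and 140901 to 160728 in Nr2f6-/- αPD-L1, so that the groups of the combination did not overlap. In that comparison 12 of 12 were positive with a median log2 fold change of 0.47, against -0.12 over all genes. Limma called 0 of them, against 0.617% of all genes, and 7 had an unadjusted p under 0.05, against 9.04%. DESeq2 called 1 and edgeR 0, against 1.87% and 0.183% of all genes. These sums were higher in the group where S100a4 and S100a6 were higher, and their part in those calls was not tested. Trbc2, Trac and Cd3d averaged 49776, 18179 and 12619 normalized counts. The B cell marker Cd79a and the platelet markers Gp9, Gp1ba and Treml1 were at 0 in every library. Platelet markers, mainly Pf4, summed to 2300 to 2611 in Nr2f6+/+ IgG2b and to at most 703 in the other groups. The part of platelet RNA in the members' values was not tested.

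For each tested member the 3 genes with the most similar values over the 18 libraries were found by Pearson's r of log2 values, a description that shares library and group between points. S100a6 was most like Ccl5 (r = 0.87), Cd8b1 (0.82) and Ikzf3 (0.80), and with the group means removed these were 0.60, 0.59 and 0.59. S100a4 was most like Atp6v1f, Ms4a6b and Capza1 (0.86, 0.84 and 0.83). S100a11 followed Mapre2, Srgn and Lgals3bp (0.87, 0.83 and 0.80), the last being a gene of the galectin list. Lgals1 followed Cd3d, Map1lc3b and Pglyrp2 (0.87, 0.80 and 0.78), and Lgals9 followed Osbpl9, Il2rg and Cd53 (0.86, 0.84 and 0.83). For S100a13 the genes were Psmb10, Mrps34 and Gmfg (0.83, 0.77 and 0.77), for Lgals3 Crip1, Otud7b and Gfod1 (0.79, 0.77 and 0.73), and for S100a10 Tmem164, Rb1 and Cdc16 (0.79, 0.78 and 0.75). Between members, S100a4 and S100a6 had r = 0.62, which was 0.35 with the group means removed, and S100a10 and Lgals3 had 0.61 and 0.68.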

How the data were processed

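RNA of 18 samples of sorted CD3+ TILs was sequenced with a 3′ mRNA kit on an Ion Torrent instrument. Per the paper's methods and the submitters' processing notes, the authors trimmed reads with cutadapt and Trimmomatic, removed reads under 22 nucleotides, mapped to mm10 with STAR and then Bowtie2, counted with HTSeq and used DESeq2; versions, annotation and strand setting were not given in the sources used here. The authors deposited a signal per gene and sample, the read count divided by 1 size factor, with replicates not pooled. Groups and replicate numbers came from the labels, which do not say that libraries come from separate mice, so p-values measure the spread between these samples.

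Values were analysed in R 4.3.3 with limma 3.58.1 on log2(value + 1), in 1 model of 4 group means with the trend option, for genes with a mean of at least 10. Benjamini-Hochberg adjusted p-values under 0.05 were called, and tests were two-sided. Whole reads were recovered, within a tolerance of 0.01, for 16 libraries, and edgeR 4.0.16 and DESeq2 1.42.0 were run on these. In the other 2 (Nr2f6-/- αPD-L1 replicates 4 and 6) the step was too close to 1 to be checked. No 2 of the 18 columns were identical. The depth is given with the report, and floors of 3 reads cover counting error only. Gene positions and promoters are from RefSeq for GRCm38.p6, the assembly of mm10.

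The members and lists were chosen with earlier results of these data known. All members are named. Of the other lists, genes called in any comparison or among the 3 with the highest means are named. S100a5, S100a7a, S100a14, S100g, S100z, Ager, Ly6g, Il1b, Klrg1, Cx3cr1, Cd8b1, Cd4, Anxa1 and Itga2b were added after their values were seen, as were the sums without Ly6c2 and of the CD8 chains. The lists of dendritic cells, regulatory T cells, proliferating cells and naive T cells are given with the closing observations. The limma fit was checked on simulated data. Alternatives were other pseudocounts, filters and scalings, fewer samples or groups, the library range as a covariate, a replicate block and both count tests.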

Additional observations from a re-analysis of the deposited data

Results flagged for a closer look

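In 20 groups of 6 libraries (10 members in the αPD-L1 groups), 5 had a library far from the other 5 by Dixon's ratio, the gap to the nearest library over the whole range on the log2 scale. Of these 5, 4 are S100a8 or S100a9 with reads in 1 library and 0 in the other 5, where the ratio is 1 whatever the count, so the rate of about 1 in 20 that chance gives does not apply to them. For S100a8 the ratio was 1 for Nr2f6+/+ αPD-L1 replicate 5 (215 normalized counts, others 0) and 1 for Nr2f6-/- αPD-L1 replicate 3 (3.64, others 0). For S100a9 it was 1 for the same libraries (34.5 and 30.4, others 0). In Nr2f6+/+ αPD-L1 replicate 5, Il1b (595), Lyz2 (1979) and the sum of macrophage and monocyte markers without Ly6c2 (6433) were the highest of that group. Ly6g, a neutrophil marker, was 0 there and 3.64 in Nr2f6-/- αPD-L1 replicate 3, and it was highest, at 19.0, in Nr2f6-/- αPD-L1 replicate 4, where S100a8 and S100a9 were at 0. For Lgals9 the ratio was 0.638 for Nr2f6+/+ αPD-L1 replicate 4, the lowest at 499 normalized counts, with the next at 797.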

How the results depend on the processing

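Of 818 alternative fits of the 33 fold changes printed for members, 739 kept the direction and the side of the threshold, 37 kept the direction but no longer passed, 12 kept it and newly passed, and 30 changed sign. For αPD-L1 in Nr2f6-/- TILs (0 members called) the library range as a covariate, the replicate block and DESeq2 each gave 1, S100a6. For the mean αPD-L1 effect (0 called) a pseudocount of 10 and DESeq2 gave 1 (S100a4), the replicate block and the first library range alone 1 (S100a6), the covariate 2 (both), and leaving out 1 library 0 to 1. Between genotypes with αPD-L1 (1 called) no filter, only the groups compared and the first range alone gave 0, and leaving out 1 library 0 to 1. In the combination (2 called) no filter, quantile normalization, scaling to the same total and edgeR gave 0. A pseudocount of 0.5, a mean of at least 50, only the groups compared and limma over the 16 libraries of the count tests, an alternative chosen after seeing the data, gave 1, and leaving out 1 library 0 to 1. The cause was not tested.

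These results changed sign under an alternative. S100a6 with αPD-L1 in Nr2f6+/+ was -0.17 after quantile normalization, -0.031 at the same total and -0.047 to 0.26 with 1 library left out. The mean effect on S100a11 was -0.048 at the same total and -0.031 to 0.076 with 1 left out. Lgals1 between genotypes with αPD-L1 was 0.043 and 0.0074 under these scalings and -0.087 to 0.12 with 1 left out, and S100a13 was -0.13 in the first range alone. The interaction for S100a4 was -0.033 by edgeR and -0.032 by DESeq2, and -0.14 to 0.17 with 1 left out.

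Replicate numbers did not pair the samples: over 21 pairs with the same number the correlation of deviations lay between -0.03 and 0.04. Over all genes the replicate block gave 12, 27, 69, 0, 31, 79 and 0 calls, against 29, 39, 136, 0, 21, 74 and 0 without it, in the order αPD-L1 in Nr2f6+/+, in Nr2f6-/- and on average, genotype with IgG2b and with αPD-L1, combination and interaction. Depth limits S100a8 and S100a9, whose values are at or near the floor of 3 reads in most libraries.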

Other observations

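Lists that describe T cell states and other cells moved as follows. Some of them, such as those of effector T cells, macrophages and platelets, were also used above. Naive and central memory markers (10 genes) summed to 11992 to 15837 normalized counts in Nr2f6+/+ IgG2b, 9361 to 12121 in Nr2f6-/- IgG2b, 5090 to 9358 in Nr2f6+/+ αPD-L1 and 4425 to 7024 in Nr2f6-/- αPD-L1. Both αPD-L1 groups lay below both IgG2b groups, but 9358 in Nr2f6+/+ αPD-L1 and 9361 in Nr2f6-/- IgG2b were nearly the same. Within the list, Tcf7, a transcription factor of naive and memory T cells, fell by 1.05 ± 0.18 on the log2 scale with αPD-L1 in the mean over genotypes (adjusted p = 0.00204, limma), and Klf2 and Igfbp4 fell by 1.69 ± 0.40 and 1.89 ± 0.48 (adjusted p = 0.0301 and 0.0438, limma). Il7r and S1pr1, the others of highest mean, were not called. The effector genes Prf1 and Nkg7 rose by 1.42 ± 0.33 and 0.63 ± 0.15 (adjusted p = 0.0262 and 0.0325, limma).

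Regulatory T cell markers (8 genes) ran from 14270 to 31230 normalized counts in Nr2f6+/+ αPD-L1 and from 15076 to 19770 in Nr2f6-/- αPD-L1, and overlapped with both IgG2b groups. Proliferation markers (8 genes) ran from 25944 to 39665 over all libraries and overlapped between groups. Dendritic cell markers (9 genes, 7 tested) ran from 25.2 to 1386 and B cell markers (8 genes, 3 tested) from 1672 to 6972.

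Of the 15 macrophage and monocyte markers, 7 fell with αPD-L1 in the mean over genotypes by limma: Lyz2, Adgre1, C1qb, C1qc, Cd14, Mrc1 and C3ar1, with adjusted p between 3.2e-07 and 0.0432. C1qb, a subunit of complement C1q, ran from 825 to 1511 normalized counts over the IgG2b libraries and from 21.1 to 828 with αPD-L1, and C1qa was not called. The platelet gene Pf4 was called lower with αPD-L1 in the mean over genotypes (adjusted p = 0.0130, limma). Ppbp had reads in the 3 Nr2f6+/+ IgG2b libraries, with 0 in the other 15. It passed the filter only through that group, so its call for the mean effect (adjusted p = 0.0199, limma) rests on that group alone. In Nr2f6-/- TILs Ppbp was at 0 with either antibody. Gp1bb had reads in 3 of 18 libraries, and Itga2b, another platelet gene, was near the floor. Both were at 0 in the IgG2b groups, the other way from Pf4. With αPD-L1, Gp1bb averaged 9.48 in Nr2f6+/+ and 1.70 in Nr2f6-/-, and Itga2b 1.69 and 0.783.

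The most abundant markers of the remaining lists averaged, over the 18 libraries, 14755 normalized counts for Gzmb, 5321 for Tnfrsf4, 4669 for Nrp1 and 3415 for Tnfrsf18. For proliferation they were Top2a (8796), Birc5 (7148) and Cdk1 (6959), and for melanocytes Dct (1088), Pmel (703) and Tyrp1 (655). Ighm (2309), Igkc (513) and Cd79b (29.7) led the B cell list, Itgax (390), Zbtb46 (129) and Siglech (121) the dendritic cell list, and Ltf (131), Mmp9 (54.4) and Csf3r (8.70) the neutrophil list. Csf3r had a mean under 10 and was not tested, and limma called 0 of the others in any of the 7 comparisons.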
